A study of Mus musculus with 2 samples.

Results

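The miRNAs described here are 6 mouse miRNAs known to be made without the Microprocessor: mir-320, mir-484, mir-877, mir-1224, mir-702 and mir-1839. They were chosen by name from the miRNA class of a table of small RNA read counts, with either arm of each hairpin allowed. Of the 12128 distinct sequences in that class, 130 carried a member name, and 5 of the 6 names were found. mir-1839 had 0 sequences in the class, and its reads were looked for by exact match elsewhere in the table. In the class, mmu-mir-320 had 7955 reads in Ago2ADH and 6504 in wild type, mmu-mir-484 had 2922 in Ago2ADH and 2102 in wild type, and mmu-mir-877 had 128 in Ago2ADH and 95 in wild type. mmu-mir-702 had 25 in Ago2ADH and 10 in wild type, and mmu-mir-1224 had 1 in Ago2ADH and 2 in wild type. Together they took 11031 reads in the Ago2ADH library and 8713 reads in the wild type library, which is 0.392% of the miRNA reads in Ago2ADH and 0.310% in wild type.

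The study compared small RNAs of E18.5 fetal liver (late gestation) from B6/129 mice with Ago2ADH, a catalytically inactive Argonaute 2, and from wild type mice of the same strain and stage. Each genotype has 1 library, from RNA of 19 to 30 nt, and how many livers went into it is not given in the sources used here. There is therefore no replicate check of any difference and no p-value is given, and all intervals are 95% intervals that cover counting error only, exact for ratios and shares and by Woolf's method for odds ratios. The Ago2ADH library held 7046197 reads, of which 2811227 were miRNA reads, and the wild type library held 7599870 reads, of which 2808232 were miRNA reads. Levels are in RPM, the usual per-library scaling of reads, taken here over the miRNA reads, and 3 reads equal 1.07 RPM in either.

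Most miRNAs are cut out of a long transcript by the Microprocessor, which consists of Drosha and its partner Dgcr8, and the resulting hairpin is then cut by Dicer and loaded into an Argonaute. The miRNAs described here reach Dicer by other routes. The mir-320 and mir-484 hairpins belong to short transcripts whose capped start is taken as the end of the hairpin itself, and the capped mir-320 hairpin leaves the nucleus through exportin 1. Mirtrons such as mir-877, mir-1224 and mir-702 are short introns that are spliced out, opened by the debranching enzyme Dbr1 and folded into a hairpin. mir-1839 comes from a scaRNA, a small RNA of the Cajal body. Argonaute 2 slicing is needed to finish miR-451, which bypasses Dicer, but slicing has no established part in the routes named here.

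Among the sequences below, those of the mirtrons show marks of their route. Matures and hairpins are those of RefSeq (GRCm38.p6) where its table has an entry, written 5′ to 3′ with the seed (bases 2 to 8) in capitals. The seed is the stretch that pairs with target mRNAs, so a shifted 5′ end gives a different seed.
miR-484 (chr16:14159630-14159651, plus strand): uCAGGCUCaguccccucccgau
miR-877-5p (chr17:35960795-35960814, minus strand): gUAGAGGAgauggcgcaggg
miR-877-3p (chr17:35960731-35960752, minus strand): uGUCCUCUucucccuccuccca
miR-1224-5p (chr16:20604452-20604472, plus strand): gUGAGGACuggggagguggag
miR-1224-3p (chr16:20604516-20604536, plus strand): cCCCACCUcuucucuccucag
miR-702-5p (chr5:136991442-136991462, plus strand): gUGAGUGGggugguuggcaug
miR-702-3p (chr5:136991520-136991541, plus strand): uGCCCACCcuuuaccccgcucc
miR-1839-5p (chr7:81529919-81529940, plus strand): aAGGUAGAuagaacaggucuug
These matures had 8 different seeds. Among the 1738 matures of the RefSeq table, the seed of miR-702-5p was shared with miR-3102-5p, and the others were shared with none.

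The 5p matures of the 3 mirtrons begin with GU, the first bases of an intron. Their 3p matures are rich in C and U, the bases of the polypyrimidine tract before a splice acceptor. The C and U content was 90.9% in miR-877-3p, 85.7% in miR-1224-3p and 81.8% in miR-702-3p, beside a median of 59.1% over 731 3p matures. The Mir877 hairpin (chr17:35960730-35960814, minus strand, 85 nt) is exactly intron 12 of Abcf1 in GENCODE M21. It is shown because most of its 5p reads begin at the first base of the intron and many of its 3p reads end at the last. The capitals mark its 2 mature arms.
Mir877 hairpin: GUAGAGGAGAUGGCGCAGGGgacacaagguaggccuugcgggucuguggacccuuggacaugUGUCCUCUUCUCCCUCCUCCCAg
The Mir1224 hairpin (chr16:20604452-20604536, plus strand, 85 nt) is likewise exactly an intron of Vwa5b2. The Mir702 hairpin (chr5:136991433-136991541, plus strand, 109 nt) lies over intron 13 of Plod3, which runs from 136991442 to 136991543. Its annotated form starts 9 nt before the intron and stops 2 nt short of the intron's end, and its 2 arms are again in capitals.
Mir702 hairpin: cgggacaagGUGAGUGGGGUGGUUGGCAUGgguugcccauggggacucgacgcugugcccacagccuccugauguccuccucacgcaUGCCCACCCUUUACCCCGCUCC

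Mir320 (chr14:70443510-70443591, plus strand, 82 nt) lies in no annotated exon or intron, and its first base is 63 nt from a start of Polr3d on the opposite strand. Mir484 (chr16:14159626-14159692, plus strand, 67 nt) shares 19 nt with an exon of Marf1 on the opposite strand and lies 3583 nt before Nde1 on its own strand. Mir1839 (chr7:81529916-81529988, plus strand, 73 nt) starts at position 62 of a 127-nt scaRNA, inside the lncRNA 2900076A07Rik. Reads matching the opposite strand of any of the 6 hairpins numbered 0 in Ago2ADH and 0 in wild type.

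Levels within the set ran from 2827 RPM to less than 1.07 RPM, and the capped class came first. miR-320-3p had 7947 reads (2827 RPM) in Ago2ADH and 6498 reads (2314 RPM) in wild type, and was the 55th arm in Ago2ADH and the 58th in wild type out of 629. miR-484-5p had 2922 reads (1039 RPM) in Ago2ADH and 2102 reads (749 RPM) in wild type and was the 117th arm in wild type. In Ago2ADH both stood above their wild type level, by less than the 2-fold used as the limit below.

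Among the mirtrons, miR-877-5p was the only one with 100 or more reads over both libraries in the miRNA class. It had 124 reads (44.1 RPM) in Ago2ADH and 93 reads (33.1 RPM) in wild type. miR-702-5p had 15 reads in Ago2ADH and 6 in wild type, and miR-702-3p had 10 reads in Ago2ADH and 4 in wild type. These 2 arms had the same log2 ratio, 1.32, with intervals that include 0 (-0.13 to 2.97 for the 5p arm, -0.47 to 3.45 for the 3p arm). miR-877-3p had 4 reads in Ago2ADH and 2 in wild type. miR-1224 was near the limit of detection, with 1 read of the 5p arm in Ago2ADH, 2 in wild type, and 0 reads of the 3p arm in either, which allows up to 1.07 RPM. No mRNA fragment was listed under the symbol of its host, Vwa5b2, whereas Abcf1 and Plod3 had some.

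The scaRNA-derived member was present but unnamed. On the 5p arm of the Mir1839 hairpin lay 873 reads (311 RPM) in Ago2ADH and 748 reads (266 RPM) in wild type, in 30 distinct sequences with 1 genome match and no annotation class. In wild type 175 named arms were more abundant. Its 3p arm had 7 reads in either library. The rest of the scaRNA had 14 reads in Ago2ADH and 30 reads in wild type, so in both libraries nearly all reads of this locus came from 1 arm.

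**Figure D1:**
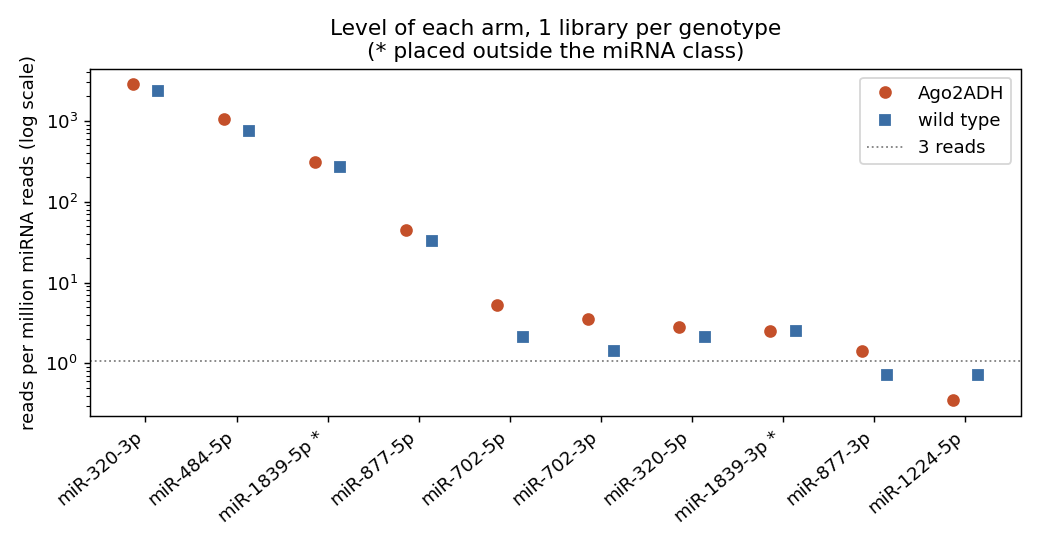
Level of each arm in RPM of miRNA reads (log scale), Ago2ADH as circles and wild type as squares, with a dotted line at 3 reads. Levels run from 2827 RPM for miR-320-3p in Ago2ADH to 0.356 RPM (1 read) for miR-1224-5p in Ago2ADH. An asterisk marks arms counted outside the miRNA class.

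The genotypes were compared by a size rule for arms with at least 100 reads over the pair of libraries. An arm was called when the ratio of Ago2ADH to wild type was at most 0.5 or at least 2 and the interval left out 1. Of all 353 arms with enough reads, 0.85% were called lower and 5.67% higher in Ago2ADH, 6.52% in all. Of the 3 member arms that could be assessed, 0 were called in either direction. The log2 ratio of Ago2ADH over wild type was 0.29 (0.24 to 0.34) for miR-320-3p, 0.47 (0.39 to 0.56) for miR-484-5p and 0.41 (0.01 to 0.82) for miR-877-5p. For miR-1839-5p it was 0.22 (0.08 to 0.36), also not called.

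The median of the 3 member arms was 0.41, and that of all 353 arms was 0.15. The abundant miR-451-5p, the arm with the lowest ratio (-6.23), is part of the scaling total. Relative to the median of all arms, miR-320-3p stood at 0.14 (0.09 to 0.19), miR-484-5p at 0.32 (0.24 to 0.40), miR-877-5p at 0.26 (-0.14 to 0.67) and miR-1839-5p at 0.07 (-0.07 to 0.21). The middle 50% of the other 350 arms lay between -0.12 and 0.42. Of these, 118 (33.7%) had a larger ratio than miR-320-3p, 79 (22.6%) than miR-484-5p and 88 (25.1%) than miR-877-5p.

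**Figure D2:**
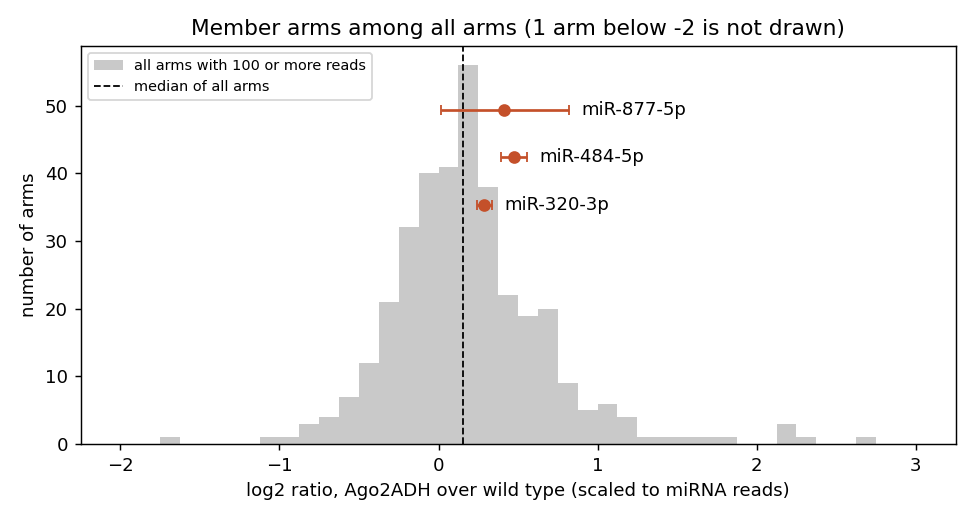
Histogram of the log2 ratio, Ago2ADH over wild type, for the 353 arms with 100 or more reads (1 arm below -2 is not drawn), with the median of 0.15 as a dashed line. Points with 95% counting intervals show the 3 member arms, all to the right of the median and within the bulk of the arms. The height of the points has no meaning.

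The 5 arms outside the set nearest to miR-320-3p in wild type reads give the scale of such differences. miR-142-5p had 8263 reads in Ago2ADH and 6125 in wild type, a log2 ratio of 0.43. For miR-30c-5p the counts were 7239 in Ago2ADH and 6025 in wild type (0.26), and for miR-409-3p 7306 in Ago2ADH and 6616 in wild type (0.14). miR-15a-5p had 6199 reads in Ago2ADH and 7049 in wild type (-0.19), and miR-25-3p had 4678 in Ago2ADH and 6653 in wild type (-0.51). The value of miR-320-3p lies inside this range.

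The erythroid and the endothelial and stromal marker sums were lower in Ago2ADH, while the hepatocyte sum was nearly the same in both libraries. Fragments of 13 erythroid mRNAs, all detected, summed to 8553 reads in Ago2ADH and 14237 in wild type (log2 ratio -0.63, interval -0.66 to -0.59, on the scale of all reads). The sum over 12 hepatocyte mRNAs, all detected, was 97033 reads in Ago2ADH and 101051 in wild type (0.05), so the liver label is borne by its defining genes. The 7 endothelial and stromal mRNAs summed to 173 reads in Ago2ADH and 265 in wild type (-0.51). The 5 detected of 6 myeloid mRNAs had 612 reads in Ago2ADH and 747 in wild type (-0.18, -0.33 to -0.02), with Elane at 0. The 5 muscle mRNAs had 27 reads in Ago2ADH and 25 in wild type (0.22, -0.62 to 1.07). In bulk liver, fewer cells of a type and less RNA per cell cannot be told apart, and the part of cell makeup in the miRNA ratios was not tested.

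In the miRNA class, mir-320, mir-484 and mir-877 gave reads mainly from 1 arm, mir-702 from both, and mir-1224 had too few reads to say. For mir-320 the 5p side held 8 of 7955 reads (0.101%) in Ago2ADH and 6 of 6504 (0.0923%) in wild type. Of these, 6 in Ago2ADH and 6 in wild type were 15 or 16 nt long and ended at position 47 of the hairpin, the base before the main start of miR-320-3p. These short reads border the 3p arm and count as 5p only because the hairpin was split at its midpoint. Only 2 reads, both in Ago2ADH, were of mature length (22 nt). For mir-484 the 3p arm had 0 of 2922 reads in Ago2ADH and 0 of 2102 in wild type, which by the limit of 3 counts allows a share of up to 0.103% in Ago2ADH and 0.143% in wild type (exact upper bounds 0.126% in Ago2ADH and 0.175% in wild type). For mir-877 the 3p arm had 3.13% of 128 reads in Ago2ADH and 2.11% of 95 in wild type. For mir-702 the 3p arm held 10 of 25 reads in Ago2ADH and 4 of 10 in wild type, 40% in both.

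Over 226 other hairpin names with 200 or more reads, the minor arm had a median share of 1.83% in Ago2ADH and 1.66% in wild type. With both libraries pooled, 30 of them had a lower share than mir-320 including 14 with 0 reads of the minor arm. The low share of mir-320 and mir-484 is thus in the lower part of the range and is shared with a number of other hairpins. The log2 odds ratio of the minor arm, Ago2ADH over wild type, was 0.10 (-1.38 to 1.57) for mir-320 and 0.43 (-1.83 to 2.70) for mir-877. For mir-320 both the rank and the odds ratio rest mostly on the short reads that border its 3p arm. These counts could not show a change of less than several-fold.

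The 5′ ends, which set the seed, differed between members, while the intervals of the genotypes overlapped. miR-320-3p started at position 48 of its hairpin in 81.5% of reads (80.6 to 82.4) in Ago2ADH and 81.0% (80.03 to 81.96) in wild type. A start 1 base later, at 49, had 8.90% in Ago2ADH and 8.80% in wild type, and a start at 50 had 8.07% in Ago2ADH and 8.14% in wild type. Its 3 starts had log2 ratios of 0.30, 0.30 and 0.28, so the forms with shifted seeds moved with the main one. miR-484-5p had a single dominant start, with 98.97% of reads in Ago2ADH and 98.5% in wild type.

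miR-1839-5p had 2 starts 1 base apart. The first had 78.7% of reads in Ago2ADH and 78.1% in wild type, and the second had 19.1% in Ago2ADH and 19.3% in wild type. Their most abundant reads show the shift, with the 495 reads in Ago2ADH and 416 in wild type of the first form above the 129 in Ago2ADH and 102 in wild type of the second.
miR-1839-5p, first start: aaggtagatagaacaggtcttg
miR-1839-5p, second start: aggtagatagaacaggtcttg

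The 5p reads of the mirtrons began at the splice donor. Over miR-877-5p, miR-702-5p and miR-1224-5p, 135 reads in Ago2ADH and 96 in wild type started at the first base of the intron, while 5 reads in Ago2ADH and 5 in wild type did not. For miR-702-5p, whose annotated hairpin includes 9 exonic bases, these were 14 of 15 reads in Ago2ADH and 6 of 6 in wild type. For miR-877-5p they were 96.8% of reads in Ago2ADH and 94.6% in wild type.

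**Figure D3:**
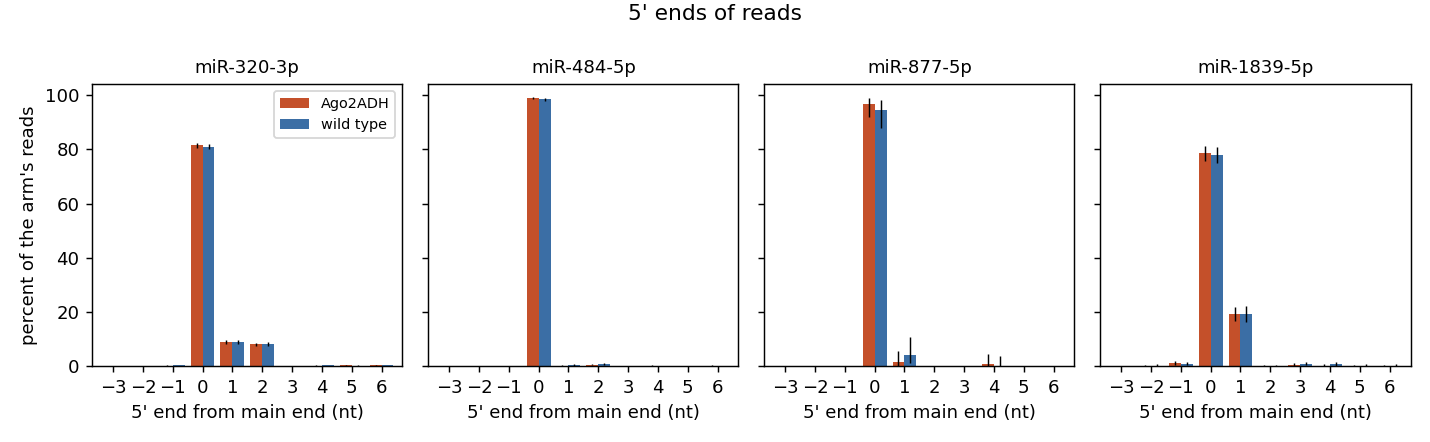
Share of an arm's reads (percent) starting at each base, counted from the main 5′ end, with Ago2ADH as the left bar and wild type as the right bar of each pair and 95% exact intervals. miR-484-5p has 1 dominant start, miR-320-3p has further starts 1 and 2 bases on, and miR-1839-5p has a start 1 base on at 19.1% in Ago2ADH and 19.3% in wild type.

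In 192 other arms with 1000 or more reads the main 5′ end took a median of 96.9% of reads in Ago2ADH and 96.4% in wild type. It was lower than in miR-320-3p for 33 of them in either library and lower than in miR-1839-5p for 31 in either library. miR-484-5p was at the other side, with 172 arms lower in Ago2ADH and 163 in wild type. The 2 members that come from a capped hairpin thus stood at different sides of the range.

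Mean lengths were close to those of the other arms. The mean was 22.10 nt in Ago2ADH and 22.09 nt in wild type for miR-320-3p, and 21.90 nt in Ago2ADH and 21.84 nt in wild type for miR-484-5p. It was 21.88 nt in Ago2ADH and 21.98 nt in wild type for miR-877-5p, and 21.85 nt in Ago2ADH and 21.78 nt in wild type for miR-1839-5p. The median of the other 192 arms was 21.74 nt in Ago2ADH and 21.73 nt in wild type. miR-484-5p was concentrated in 1 length, with 83.3% of its reads at 22 nt in Ago2ADH and 81.2% in wild type.

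**Figure D4:**
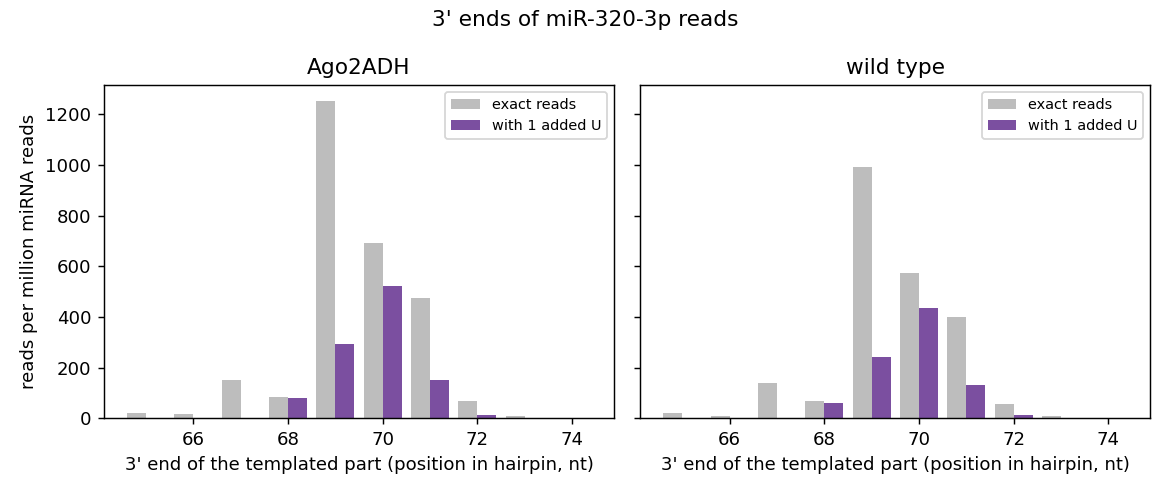
Level of miR-320-3p reads (RPM of miRNA reads) by the position in the hairpin where the templated part ends, Ago2ADH on the left and wild type on the right. Grey bars are exact reads and purple bars reads with 1 added U. In both libraries exact reads peak at position 69 and reads with an added U at position 70.

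The 3′ ends were broader. miR-320-3p ended at position 69 in 44.8% of reads in Ago2ADH and 43.3% in wild type, at 70 in 24.7% in Ago2ADH and 24.98% in wild type, and at 71 in 16.8% in Ago2ADH and 17.5% in wild type. miR-877-5p was spread over 22, 23 and 24 nt, with 20.97%, 33.1% and 16.1% of its reads in Ago2ADH and 24.7%, 24.7% and 22.6% in wild type. The share at its main 3′ end was 35.5% (27.1 to 44.6) in Ago2ADH and 28.0% (19.1 to 38.2) in wild type. It was lower in 13 of the 192 other arms in Ago2ADH and in 1 in wild type. These ranks are uncertain, because this end had only 44 reads in Ago2ADH and 26 in wild type. Reads of miR-484-5p of 24 nt numbered 43 in Ago2ADH and 12 in wild type, 1.47% (1.07 to 1.98) against 0.571% (0.295 to 0.995) of the arm. These are too few reads for the size rule. The 21-nt reads of this arm went the other way, with 5.34% (4.55 to 6.22) in Ago2ADH and 7.71% (6.60 to 8.93) in wild type. Nearly the same reads are those ending at position 25, with 5.37% (4.58 to 6.25) in Ago2ADH and 7.61% (6.51 to 8.83) in wild type.

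Reads with bases that the genome does not encode were then counted. These tailed reads have 0 genome matches and consist of 18 nt or more of the hairpin followed by 1 to 3 other bases. Terminal transferases add such bases, mostly U or A, to miRNAs and their precursors, and mirtron hairpins are known targets of uridylation. A sequencing error in the last 1 to 3 bases of a read would be counted as a tail too. How many tailed reads come from such errors was not measured. An added base equal to the next hairpin base cannot be seen. The next base is A after 92.8% of the exact reads of miR-320-3p in Ago2ADH and 92.1% in wild type, so A tails of this arm are mostly hidden. For miR-320-3p, 4512 of 12305 reads (36.7%) in Ago2ADH and 3704 of 10075 (36.8%) in wild type were tailed. A single U made up 3006 reads (24.4% of all) in Ago2ADH and 2491 (24.7%) in wild type. The median over the 192 other arms was 15.4% tailed in Ago2ADH and 15.6% in wild type, and 4.24% in Ago2ADH and 4.14% in wild type with a single U.

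Tailed reads of miR-320-3p thus made up more of the arm than in most others, in both genotypes. Of the 192 arms, 24 had a larger tailed share in Ago2ADH and 22 in wild type, and 11 in either library had a larger share with a single U. The log2 odds ratio of tailed reads was -0.01 (-0.08 to 0.07). The share with a single U differed by the position where the match to the hairpin ended. At position 70 it was 38.9% in Ago2ADH and 38.9% in wild type, whereas at position 69 it was 16.3% in Ago2ADH and 16.9% in wild type. Because added A is mostly hidden in this arm, a read cut at 69 with an added A would count as ending at 70. These ends thus cannot be fully told apart.

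miR-484-5p was tailed in 30.5% of 4157 reads in Ago2ADH and 28.6% of 2926 reads in wild type, with a single U in 12.7% in Ago2ADH and 12.2% in wild type. Its commonest tailed read numbered 323 in Ago2ADH and 225 in wild type, and is shown with the added base in capitals (T stands for U in reads of the deposited table).
miR-484-5p with a tail: tcaggctcagtcccctcccgatT
For miR-1839-5p the next hairpin base is U after 94.2% of the exact reads in Ago2ADH and 94.1% in wild type, so an added U could not be seen there. A single A was present in 164 of 1107 reads (14.8%) in Ago2ADH and 119 of 923 (12.9%) in wild type. The median share with a single A over the other 192 arms was 4.57% in Ago2ADH and 4.63% in wild type, and 3 of them in Ago2ADH and 7 in wild type had a larger one. Arms differ in which additions the next base hides, so these ranks describe visible additions only. Its commonest tailed read numbered 114 in Ago2ADH and 70 in wild type.
miR-1839-5p with a tail: aaggtagatagaacaggtcttgA

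**Figure D5:**
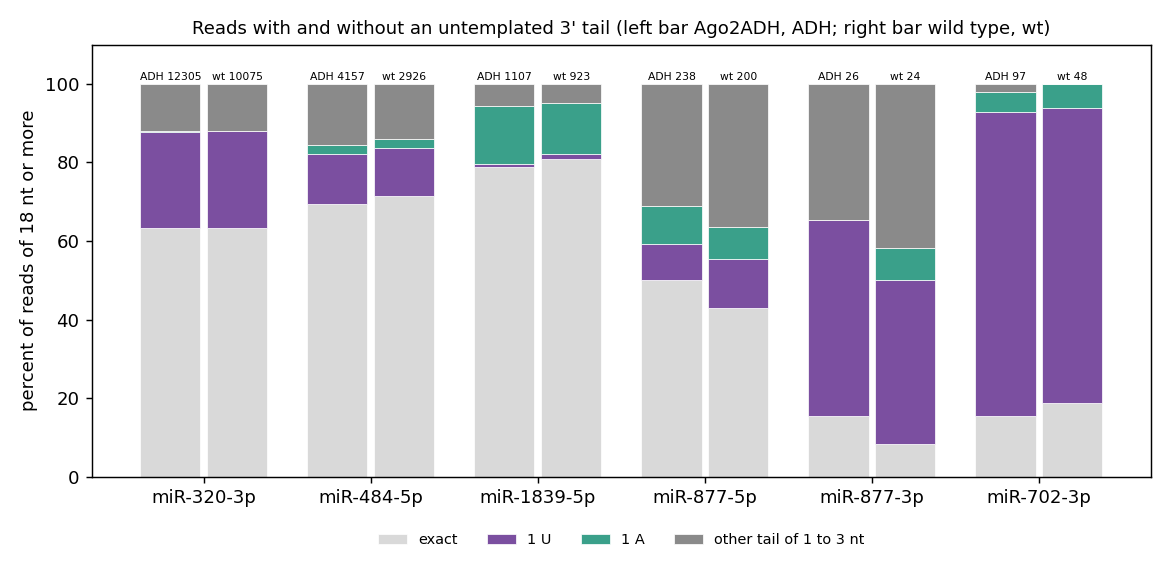
Percent of each arm's reads of 18 nt or more that are exact, carry 1 added U, carry 1 added A or carry another tail of 1 to 3 nt, with Ago2ADH (ADH) as the left bar and wild type (wt) as the right bar and the number of reads above each. The U part is 77.3% in Ago2ADH and 75% in wild type for miR-702-3p. Additions equal to the next hairpin base are not visible, which hides most U tails of miR-1839-5p and most A tails of miR-320-3p.

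On the 5p side of the mirtrons, miR-877-5p was tailed in 119 of 238 reads (50%) in Ago2ADH and 114 of 200 (57%) in wild type, with no single base dominating. miR-702-5p was tailed in 2 of 15 reads in Ago2ADH and 4 of 8 in wild type, and miR-1224-5p in 6 of 7 in Ago2ADH and 0 of 2 in wild type. The 3p arms of the mirtrons were found mostly as tailed reads. For miR-702-3p, 82 of 97 reads (84.5%) in Ago2ADH and 39 of 48 (81.3%) in wild type were tailed, and 75 in Ago2ADH and 36 in wild type carried a single U. For this count the template was carried 2 nt on to the end of the Plod3 intron. At the last base of that intron there were 6 exact reads in Ago2ADH and 5 in wild type, listed under Plod3 and not as a miRNA. At the same base there were 74 reads with 1 added U in Ago2ADH and 33 in wild type, which is 85.1% (75.8 to 91.8) of the reads that end there in Ago2ADH and 84.6% (69.5 to 94.1) in wild type.

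miR-877-3p had 22 tailed reads of 26 in Ago2ADH and 22 of 24 in wild type. At the last base of the Abcf1 intron, 12 of 23 reads in Ago2ADH and 10 of 13 in wild type carried a single U. A further 22-nt read, the end of that intron plus U, numbered 39 in Ago2ADH and 33 in wild type. It is listed with 1 genome match and no class, so the mir-877 locus and that other site cannot be told apart, and it was left out of the counts. miR-1224-3p had 2 reads in Ago2ADH and 0 in wild type, and both ended at the last base of the Vwa5b2 intron with 1 added U. The commonest tailed reads of the 3 mirtrons end in AG, the splice acceptor, followed by the added base in capitals.
miR-702-3p with a tail: tgcccaccctttaccccgctccagT
miR-877-3p with a tail: tgtcctcttctccctcctcccagT
miR-1224-3p with a tail: ccccacctcttctctcctcagT
The miR-702-3p form had 72 reads in Ago2ADH and 33 in wild type, the miR-877-3p form 12 in Ago2ADH and 10 in wild type, and the miR-1224-3p form 2 in Ago2ADH and 0 in wild type.

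Counting tailed reads changed the view of mir-702. Its 3p arm then held 86.6% (78.9 to 92.3) of the reads in Ago2ADH and 85.7% (73.8 to 93.6) in wild type, so it was the major arm in both. With tails in the scaling total too, miR-702-3p met the size rule, with a log2 ratio of 1.01 (0.49 to 1.54) from 97 reads in Ago2ADH and 48 in wild type. In this count 0.804% of 373 arms were called lower and 5.63% higher in Ago2ADH, and the median of all arms was 0.13. The value lies at the 2-fold limit, and the arm had too few reads to be assessed without tails. With the same scaling miR-320-3p had 0.28, miR-484-5p 0.50, miR-877-5p 0.24 and miR-1839-5p 0.25, none of which was called. Of these, miR-1839-5p is not among the 373 arms, because its exact reads lie outside the miRNA class. The 3p arm of mir-877 remained the minor one, with 9.85% of 264 reads in Ago2ADH and 10.7% of 224 in wild type. This share depends on leaving out the 22-nt read with a genome match. That read had 39 reads in Ago2ADH and 33 in wild type, beside 26 and 24 counted 3p reads.

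Fragments of mRNAs in the same table gave a rough view of the biogenesis genes, on the scale of all reads. Such pieces reflect the amount of an mRNA and its decay together. Of 16 genes found, 14 had 20 or more reads and 7 had 100 or more, and 0 of these 7 were called lower and 0 higher. Over all 3329 genes with 100 or more reads, 0.511% were called lower and 0.391% higher. The median log2 ratio was 0.02 for the 7 genes and 0.00401 for all.

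In the Microprocessor group, Rnasen, the older symbol of Drosha, had 43 fragments in Ago2ADH and 81 in wild type. Its log2 ratio was -0.80 (-1.37 to -0.25) and did not reach the limit. Its partner Dgcr8 had 317 in Ago2ADH and 291 in wild type (0.23). The RNA helicases Ddx5 and Ddx17, which associate with Drosha, had 255 and 207 in Ago2ADH and 272 and 241 in wild type (0.02 and -0.11). Drosha and Dgcr8, which these miRNAs do not need, thus had opposite signs, and only the interval of Rnasen leaves out 0.

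For cap binding and export, Ncbp2 of the nuclear cap-binding complex had 14 fragments in Ago2ADH and 14 in wild type. Xpo5, the usual carrier of miRNA hairpins, had 27 in Ago2ADH and 20 in wild type. Xpo1, the carrier of capped mir-320, had 67 in Ago2ADH and 77 in wild type on the same scale (-0.09), and the GTPase Ran, which both carriers use, had 36 in Ago2ADH and 41 in wild type. Dicer1 had 94 in Ago2ADH and 98 in wild type (0.05), and its partners Tarbp2 and Prkra had 8 and 12 in Ago2ADH and 13 and 11 in wild type.

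Among the Argonautes, Eif2c2, the older symbol of Ago2, had 318 fragments in Ago2ADH and 229 in wild type (0.58, 0.33 to 0.83), below the 2-fold limit. The mutation changes the protein's activity, so this count does not check the genotype. Eif2c1 had 21 in either library and Eif2c3 had 20 in either. Of the host and neighbour genes, Abcf1, which carries mir-877, had 27 fragments in Ago2ADH and 37 in wild type (-0.35, -1.12 to 0.41), while miR-877-5p had 0.41 on the miRNA scale. Plod3, which carries mir-702, had 20 in either library. Of these, 6 in Ago2ADH and 5 in wild type are the miR-702-3p reads at the intron end described above. Nde1, next to mir-484, had 47 in either, and Marf1, listed as 4921513D23Rik, had 68 in Ago2ADH and 59 in wild type (0.31). On the scale of all reads, as used for Abcf1, miR-877-5p had 0.52 (0.12 to 0.93). The intervals of Abcf1 and miR-877-5p overlap on that scale, although their ratios have opposite signs, and the difference was not tested.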

How the data were processed

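The authors deposited raw read counts, 1 per distinct sequence and library (Ago2ADH and wild type), with the number of genome matches, a class and a name per the file headers. No source used here names the aligner or genome build. Columns of other samples numbered 0. Reads of the miRNA class were placed by exact match on 1174 hairpins of GENCODE M21 (GRCm38), where 0.130% in Ago2ADH and 0.161% in wild type found no place. The placed arm was the named one for 99.96% of reads, and 99.1% of member reads match the genome once.

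Ratios are scaled to miRNA reads, with exact conditional binomial intervals. Shares have Clopper-Pearson and odds ratios Woolf intervals with 0.5 added. Each genotype has 1 library, so no p-value was computed. The alternatives include TMM scaling by edgeR 4.0.16. Sequences were amplified by PCR without molecular identifiers.

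The members and lists were chosen with earlier results of these data known. Every arm of every member is named, with the 5 other arms nearest to the most abundant member arm in wild type and every biogenesis or host gene with 20 or more fragments.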

Additional observations from a re-analysis of the deposited data

Results flagged for a closer look

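Reads outside the main counts were above the level in wild type by more than counting error for 5 signals, each from 1 library per genotype. They are listed because their interval lies above 0, and the share of all arms that would pass was not counted. Of the 353 arms with 100 or more exact reads, 230 had a log2 ratio above 0. On the 5p arm of Mir1839, whose reads carry no annotation class, the log2 ratio of Ago2ADH over wild type was 0.22 (0.08 to 0.36). For tailed reads, which have no genome match, it was 0.28 (0.22 to 0.35) for miR-320-3p, 0.60 (0.47 to 0.72) for miR-484-5p, 1.07 (0.50 to 1.66) for miR-702-3p and 0.42 (0.13 to 0.71) for miR-1839-5p. Tailed reads of miR-877-5p, with 119 in Ago2ADH and 114 in wild type (0.06, -0.32 to 0.44), were not above wild type by this measure, and miR-877-3p had 22 in either library. The median was 0.10 for the tailed reads of 261 arms with 100 or more of them, and 0.15 for the exact reads of 353 arms. The interval of the log2 odds ratio of the tailed share, Ago2ADH over wild type, includes 0 for these 4 arms.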

How the results depend on the processing

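No paired analysis was possible because each genotype has 1 library. The median log2 ratio of the member arms, 0.41, stayed above 0 under 14 alternatives, between 0.04 (distinct sequences, beside 0.12 for all arms) and 0.52 (all reads). Some of these could not move it: a fold limit of 1.5 or 3 does not enter the median, and a minimum of 50 reads kept the same 3 arms. The median was 0.24 with miR-451 left out of the total, where that of all arms was -0.03. Of the single arms, miR-320-3p lay between 0.09 and 0.40 and miR-484-5p between -0.10 and 0.58, the negative value coming from distinct sequences. Both left their main counting intervals whenever only the scaling was changed, and with distinct sequences. With TMM scaling, miR-320-3p had 0.15 and miR-484-5p 0.33. Reads of 20 to 24 nt also took miR-320-3p out of its interval. The number of arms called higher was 0 under these alternatives except with untemplated tails, where it was 1 (miR-702-3p, which is not among the 3 arms of the median), beside 5.63% of all arms in that count. The number called lower was 0 under all 14. Of 30 alternatives for 13 shares of arms, ends and tails, 28 stayed within the counting interval. The other 2 are the minor arm of mir-320, where reads of 20 to 24 nt, or with 1 genome match, number 2 in Ago2ADH and 0 in wild type. Some of the share intervals are wide, such as -2.10 to 2.04 for the minor arm of mir-702, so staying within them says little. Depth limits the mirtrons, of which only miR-877-5p reached 100 reads without tails.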
